A study of Mus musculus with 230 samples.

Results

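Activating transcription factor 3 (Atf3) and 6 AP-1 genes, the Jun family members Jun, Junb and Jund and the Fos family members Fos, Fosb and Fosl2, were followed in sensory neurons of mouse dorsal root ganglia (DRG) after sciatic nerve injury. These 7 genes were chosen by name, out of 53278 genes counted, and all 7 passed the filter on low counts in the low-input libraries, where 14212 genes were tested. The mice were C57BL/6 X CAST/Ei crosses, and enzymatically dissociated ganglia of lumbar levels L4 and L5 gave the hand-picked neurons whose cytoplasm was sequenced with SMART-seq2. There were 18 low-input libraries, 3 for each condition at each of 3 ages, 1, 8 and 12 months (part of the 12-month labels give the age in years). By their RNA labels, the 69 single cells came from young mice of 1 month (21 after injury, 18 intact) and from mice of 1 year (22 after injury, 8 intact). Methylation libraries named like intact 1-month replicates 8 and 18, apart from letter case, are labelled with an age above 1 month. The labels give neither the time since the lesion nor the animal that an intact neuron came from, and none states a side. Before its running number, each intact name holds the letter L (or l) and each injured name R (or r). What these letters mean is not stated, and they were not used. Replicates may therefore share animals, and p-values measure the spread between these libraries.

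All 7 products are basic leucine zipper proteins that bind DNA as dimers. A Jun protein pairs with itself, with a Fos protein or with an ATF protein, and the partner decides whether the dimer prefers the TRE, the classical AP-1 site, or the related cyclic AMP response element (CRE). Fos, Fosb and Junb are immediate early genes that neuronal activity or tissue handling switches on within a short time. In DRG neurons, Atf3 is widely used as a marker of neurons whose axon has been cut, and Jun is a target of the JNK kinases that act in the same injury response.

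The promoters of Atf3 and Jun are shown first because these 2 genes were the ones called between injured and intact neurons. Sequences are RefSeq's, build GRCm38.p6, from 250 bases before the annotated start into the first 50 bases of the transcript, written 5′ to 3′ on the gene's strand. Atf3 is chr1:191183284-191183583 on the minus strand, at the RefSeq start, which lies inside the deposited gene span of 191170296 to 191218039 because that span includes longer transcripts. Jun is chr4:95052173-95052472 on the minus strand and has a single exon. Capitals mark the 8-base words TTACGTCA in Atf3 and TGACATCA in Jun, which differ from the full CRE word TGACGTCA and were searched after the promoters had been read.
Atf3: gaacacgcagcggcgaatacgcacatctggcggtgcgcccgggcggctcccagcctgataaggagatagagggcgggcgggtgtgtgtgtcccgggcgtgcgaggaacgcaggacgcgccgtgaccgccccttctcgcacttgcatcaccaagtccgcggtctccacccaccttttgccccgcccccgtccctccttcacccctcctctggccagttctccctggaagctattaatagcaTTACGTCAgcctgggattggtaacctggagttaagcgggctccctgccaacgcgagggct
Jun: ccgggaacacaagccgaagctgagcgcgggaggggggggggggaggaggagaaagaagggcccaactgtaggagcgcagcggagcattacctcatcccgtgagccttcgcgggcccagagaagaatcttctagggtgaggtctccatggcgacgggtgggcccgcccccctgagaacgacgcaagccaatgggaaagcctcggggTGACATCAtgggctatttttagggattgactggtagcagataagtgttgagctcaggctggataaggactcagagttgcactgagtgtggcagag
The Atf3 word lies 10 to 3 bases before the start and the Jun word 45 to 38 bases before it. A search of both strands for the TRE word TGANTCA and the CRE word TGACGTCA found neither in the 7 members' windows at their RefSeq starts. That says only that these letters are not in these windows. The Jund window, chr8:70697489-70697788, lies wholly before the deposited gene, which starts at 70698949. The Fosl2 window, from 32136222, lies inside the deposited gene, which starts at 32135801. Among 13487 promoters of the genes tested, 5.11% held the TRE word and 2.98% the CRE word. Among 635 promoters of genes called higher after injury, 11.3% held the TRE word and 2.52% the CRE word. The TTACGTCA word was in 0.764% and the TGACATCA word in 1.85% of the promoters of genes tested. These shares are descriptions and were not adjusted for base composition.

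Depth differed between libraries, with 1 library standing apart. Low-input libraries held 7531967 to 19443627 fragment counts, of which a single feature, CT010467.1, took 29.4% to 93.8%. That share was lower in injured than in intact libraries at every age, at 35.7% to 39.8% against 40.4% to 45.3% at 1 month, 41.6% to 59.7% against 65.7% to 68.2% at 8 months and 29.4% to 39.04% against 64.2% to 93.8% at 12 months. The number of genes detected was higher in injured libraries at 8 months (15396 to 18326 against 13031 to 14765) and at 12 months (18646 to 20128 against 10778 to 15198), and overlapped at 1 month. The intact 12-month replicate 2 had 770328 counts outside CT010467.1, against 1789183 or more in every other low-input library, 40.5% of them were mitochondrial, and its member counts were small. With CT010467.1 and the mitochondrial genes removed, the averaged contrasts of Atf3 and Jun described below were 5.79 (edgeR adjusted p = 1.79e-05) and 1.26 (adjusted p = 0.0328), while the part of RNA quality in the results was not tested.

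Markers of other cell types also moved with condition at some ages. The summed level of 8 neuron markers was 5522 to 7941 counts-per-million units (CPM) in injured and 3619 to 7298 CPM in intact libraries, without overlap at 12 months (6072 to 7310 against 3619 to 5862 CPM). The 7 satellite glia markers summed to 1430 to 2315 CPM in injured and 504 to 785 CPM in intact libraries at 1 month, without overlap, and the median of their log2 fold changes was 2.71 there. They overlapped at 8 months (432 to 912 against 258 to 559 CPM) and at 12 months (238 to 536 against 320 to 2312 CPM, the highest being the replicate that stood apart). The 6 vascular and fibroblast markers summed to 27.2 to 63.001 against 7.21 to 11.2 CPM at 1 month and 45.98 to 57.01 against 5.56 to 38.1 CPM at 8 months, both without overlap, and overlapped at 12 months. The 10 macrophage and immune markers were higher in injured libraries at 8 months (5.94 to 10.6 against 0 to 3.94 CPM), and overlapped at the other ages, while Schwann markers overlapped at each age. Of the neuron markers, Tubb3 rose (0.99, edgeR adjusted p = 0.0236) and Rbfox3 fell by 1.16 on the log2 scale (adjusted p = 0.0420) in the averaged contrast. None of the glial, Schwann, immune or vascular markers tested was called between conditions with edgeR's quasi-likelihood test, and their part in the results below was not tested. In the low-input libraries, fewer cells of a kind and less RNA per cell cannot be told apart.

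Atf3 rose in injured neurons at each of the 3 ages, and no other member did so in any single age's test. Averaged over ages, injured libraries held 54.3-fold more Atf3 mRNA than intact ones (log2 fold change 5.76 ± 0.56 (SE), edgeR adjusted p = 1.81e-05). CPM values in these libraries use library sizes scaled by edgeR's TMM method. At 1 month the 3 injured libraries held 317, 131 and 202 CPM and the 3 intact libraries 2.25, 9.81 and 4.67 CPM. At 8 months the injured libraries held 79.2, 396 and 265 CPM and the intact ones 1.96, 1.95 and 17.98 CPM. At 12 months the injured libraries held 438, 515 and 354 CPM and the intact ones 2.65, 0 and 5.65 CPM. The lowest injured library, 79.2 CPM, was above the highest intact library, 17.98 CPM, so the conditions did not overlap at any age.

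The Atf3 contrast was 5.26 ± 0.92 on the log2 scale at 1 month (adjusted p = 0.0274), 5.07 ± 0.92 at 8 months (adjusted p = 0.0167) and 6.96 ± 1.04 at 12 months (adjusted p = 0.00315). Replicate numbers may pair the 1-month libraries, which is not established, as the processing notes describe. A fit with a block for each replicate number at all 3 ages leaves fewer residual degrees of freedom. In that fit the 1-month value was 5.40 with an edgeR adjusted p of 0.127, so the call ended there while the size did not. It also ended when any 1 of 6 libraries was left out, which were the 3 intact libraries and injured replicates 1 and 3 of that age and the injured 12-month replicate 2 (4.88 to 5.96, adjusted p = 0.0514 to 0.186). The 8-month call ended when only the 6 libraries of that age were fitted (5.07, adjusted p = 0.424) and when injured replicate 2 (4.55, adjusted p = 0.0602) or intact replicate 2 (4.62, adjusted p = 0.0553) was left out. The 12-month call held in all 26 alternatives, with values from 6.71 to 12.2. The averaged call held in all 25 alternatives run for it, between 5.59 and 8.82. Whether the Atf3 response differed between ages was tested as an interaction, and no difference was found (edgeR p = 0.249, adjusted p = 0.856).

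Jun, the founding AP-1 subunit, was the other member called in the averaged contrast, 2.32-fold higher in injured neurons (log2 1.21 ± 0.34, edgeR adjusted p = 0.0419). At 1 month the injured libraries held 163, 121 and 135 CPM and the intact ones 70.3, 53.9 and 48.1 CPM, with no overlap. At 8 months the injured libraries held 45.1, 193 and 157 CPM and the intact ones 36.6, 116 and 32.3 CPM. At 12 months they held 131, 195 and 124 CPM against 28.6, 132 and 38.03 CPM. The groups overlapped at 8 months, through a low injured and a high intact library, and at 12 months through the intact replicate 2 that stood apart, where Jun rested on 73 fragments. No single age passed the test for Jun, with log2 values of 1.28 ± 0.58, 1.10 ± 0.58 and 1.25 ± 0.60 (edgeR adjusted p = 1, 0.497 and 0.272). The averaged call was close to the threshold: it ended in 16 of 25 alternatives, which were scaling with DESeq2's size factor method (adjusted p = 0.0557) and leaving out any 1 of 15 libraries, while the value stayed between 1.09 and 1.52 with a library left out. Without the intact 12-month replicate 2 it was 1.52 with an edgeR adjusted p of 0.00638, and the 12-month value of 2.18 then passed (adjusted p = 0.0402).

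**Figure D1:**
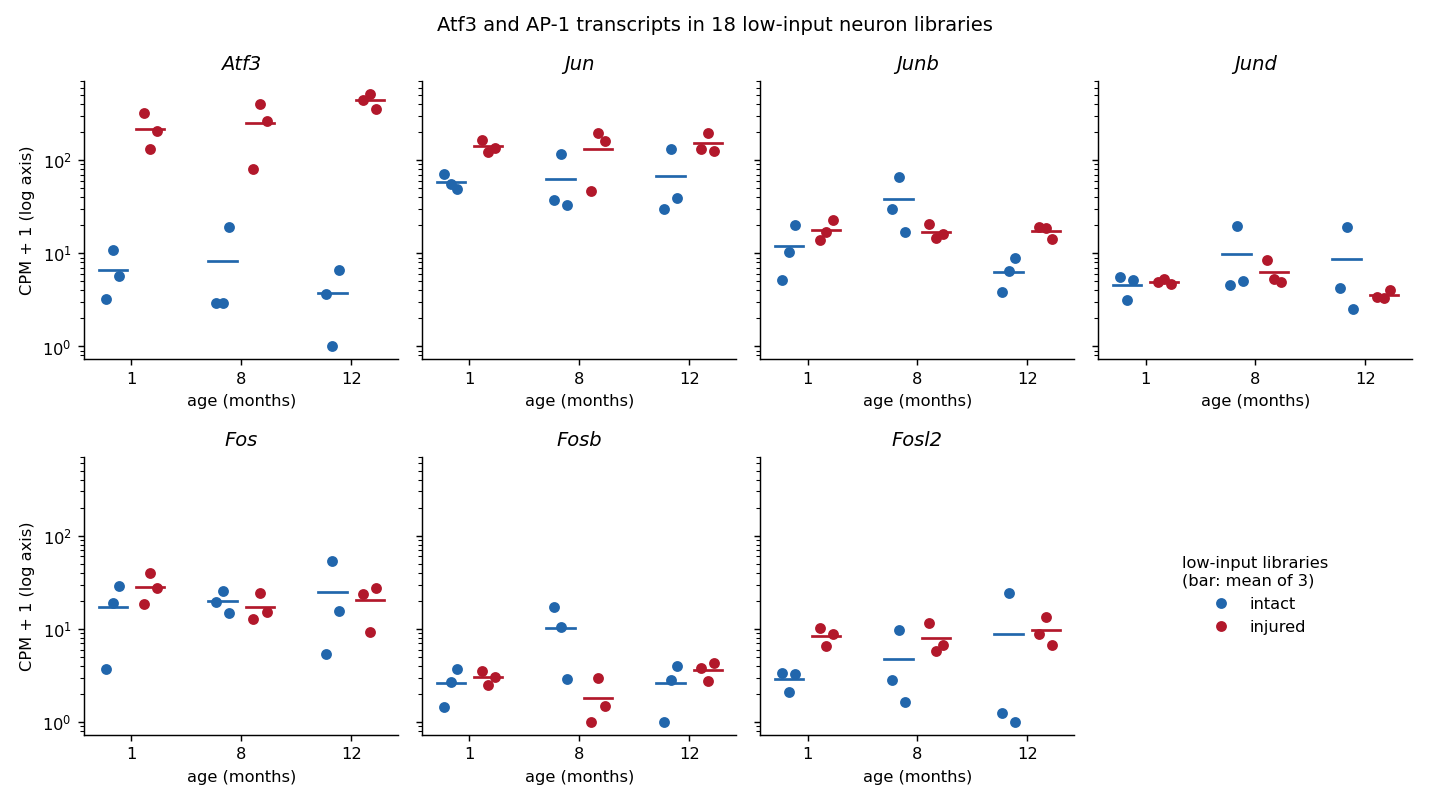
CPM + 1 on a log axis for each gene in the 18 low-input libraries (points) at 1, 8 and 12 months, with the mean of 3 libraries as a bar. Atf3 in injured libraries (79.2 to 515 CPM) lies above all intact libraries (0 to 17.98 CPM), while the other genes overlap at most ages.

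Of the 7 members, 2 were called higher in the averaged contrast and 0 lower, against 5.11% of all genes tested called higher. The members' median log2 fold change was 0.36 and that of all genes 0.03. By age, 1 of 7 members was called higher at 1 month, 8 months and 12 months, in each case Atf3, where 0.232%, 0.915% and 2.19% of all genes were called higher.

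The remaining Jun family members did not pass the test in any injury contrast. Junb, a Jun relative that often restrains Jun, held 12.9 to 21.7 CPM in all 9 injured libraries and 2.82 to 65.5 CPM in the 9 intact ones, so the injured libraries were the more even. At 1 month intact libraries held 4.12, 9.23 and 19.3 CPM, at 8 months 29.05, 65.5 and 16.01 CPM and at 12 months 2.82, 5.42 and 7.82 CPM. The age groups of intact neurons differed for Junb, the only member called in that comparison (edgeR joint test, adjusted p = 0.0237), against 4.17% of all genes. This call rested on the intact 8-month replicate 2, without which the adjusted p was 0.109. The injury values of Junb had opposite signs at 8 months (-1.20 ± 0.53, edgeR adjusted p = 0.361) and 12 months (1.64 ± 0.59, adjusted p = 0.139), and the groups did not overlap at 12 months. The test of that difference between ages gave an unadjusted p of 0.00664 and an edgeR adjusted p of 0.395. Without the filter on low counts both this difference (adjusted p = 0.0107) and the 12-month value (1.69, adjusted p = 0.0315) were called.

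Jund, the Jun relative usually regarded as constitutive, held few fragments and varied mostly through 2 intact libraries. Injured libraries held 2.34 to 7.49 CPM, and intact libraries 1.52 to 18.5 CPM, the highest being 8-month replicate 2 at 18.5 CPM and the 12-month replicate 2 at 18.1 CPM, which was 10 fragments. The averaged contrast was -0.59 ± 0.43 (edgeR adjusted p = 0.483), and it was -0.17 without the 12-month library. Reads over 877 of the 1668 bp of Jund exon also overlap the antisense gene Gm11175 and could not be assigned by counting without strand, so the Jund level is an underestimate in every library. The same holds for 232 bp of Jun, shared with Junos, and 173 bp of Junb, shared with Prdx2.

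Fos, the classical immediate early partner of Jun, was present in every low-input library and did not separate the conditions. Injured libraries held 8.20 to 38.7 CPM (median 22.9) and intact libraries 2.70 to 52.4 CPM (median 18.2). The highest value, 52.4 CPM, came from 29 fragments in the intact 12-month replicate 2. The averaged contrast was 0.16 ± 0.44 (edgeR adjusted p = 0.896), and no age passed. Fosb, a Fos relative whose truncated product is known for persisting in stimulated neurons, had the lowest level per length in injured libraries. At 8 months the injured libraries held 0, 1.94 and 0.478 CPM and the intact ones 16.2, 9.62 and 1.89 CPM. That 8-month contrast was -3.47 ± 1.23 with an unadjusted p of 0.0114 and an edgeR adjusted p of 0.220, and DESeq2 placed it inside the threshold at -3.54 with an adjusted p of 0.0497, as did edgeR without the filter on low counts (-3.45, adjusted p = 0.0046). At the other 2 ages Fosb lay between 0 and 3.28 CPM in both conditions.

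Fosl2, which encodes the Fos relative Fra-2, was higher on average in injured libraries without passing the test (1.26 ± 0.71, edgeR adjusted p = 0.345). At 1 month the injured libraries held 9.14, 5.51 and 7.78 CPM and the intact ones 2.40, 1.09 and 2.25 CPM, with no overlap. At 8 months the injured libraries held 10.7, 4.86 and 5.67 CPM and the intact ones 1.85, 8.76 and 0.657 CPM. At 12 months they held 7.91, 12.4 and 5.76 CPM against 0.257, 23.5 and 0 CPM. The value of 23.5 CPM was 13 fragments in the intact replicate 2 that stood apart. Without that library Fosl2 was called in the averaged contrast (2.83, edgeR adjusted p = 0.00302) and at 12 months (5.61, adjusted p = 0.0114), so 1 library decides this result. With all libraries, limma-voom (2.58, adjusted p = 0.00807) and the edgeR fit without the filter on low counts (1.29, adjusted p = 0.0201) also called the averaged contrast.

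**Figure D2:**
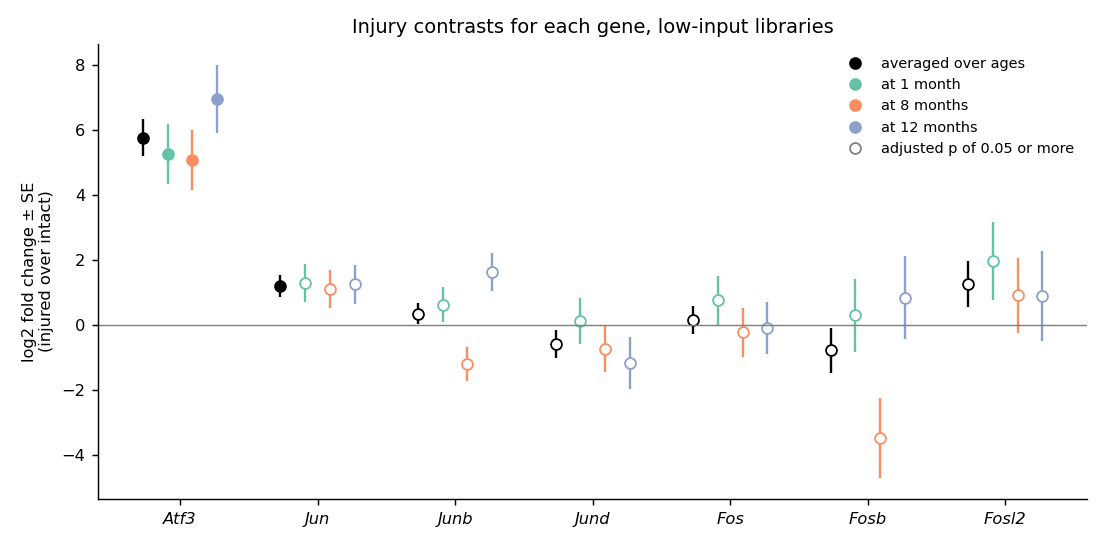
Log2 fold change of injured over intact low-input libraries (points) with its SE (bars) for each gene, averaged over ages and at each age, filled where the edgeR adjusted p is below 0.05. Atf3 is filled in all 4 contrasts and Jun in the averaged one, and Fosb at 8 months has the lowest value, -3.47.

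Across ages, 0 genes passed the test of a difference in injury response in edgeR, where 1161 had an unadjusted p below 0.05, DESeq2 called 208 and limma-voom 0. The members called were 0 of 7, and the share of all genes called was 0%. Among injured neurons alone 0 of 7 members were called between ages, against 0.218% of all genes. Expressed relative to spike-in counts instead of TMM, the median of all genes moved from 0.03 to 2.90 in the averaged contrast. Relative to that median Atf3 was 5.93, Jun 1.35 and Fosl2 1.55 higher, Fos and Junb 0.43 and 0.10 higher, and Fosb and Jund -0.46 and -0.62, while on the unshifted spike-in scale all 7 were higher in injured libraries.

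Levels of different members are compared per kb of exon. In injured libraries Atf3 was the most abundant at 139 ± 66.9 CPM per kb (SD, n = 9), followed by Jun at 44.1 ± 14.2, Fos at 8.95 ± 3.94, Junb at 7.13 ± 1.33, Jund at 2.35 ± 0.916, Fosl2 at 0.800 ± 0.268 and Fosb at 0.291 ± 0.169 CPM per kb. The ranges of neighbours in this order overlapped between Atf3 (36.8 to 239 CPM per kb) and Jun (14.2 to 61.2), between Jun and Fos, between Fos and Junb and between Fosl2 and Fosb, and not between Junb, Jund and Fosl2. This order uses full exon lengths. Over the 791 bp of Jund not shared with Gm11175, injured Jund was 4.95 ± 1.93 CPM per kb (2.96 to 9.47) and overlapped Junb, which was 7.71 ± 1.44 (6.08 to 10.2) over its 2128 unshared bp. In intact libraries Jun came first at 19.4 ± 11.8 CPM per kb, then Fos at 8.36 ± 6.28, Junb at 7.69 ± 8.62, Jund at 3.98 ± 3.996 and Atf3 at 2.42 ± 2.59, with Fosb at 0.666 ± 0.850 and Fosl2 at 0.468 ± 0.783 CPM per kb. The ranges of all adjacent genes overlapped. Over unshared bases intact Jund was 8.40 ± 8.43, level with Fos at 8.36 and Junb at 8.32 ± 9.32 CPM per kb, so the place of Jund among the intact levels depends on the length used.

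Over the 18 low-input libraries the non-members most like Atf3 were Jpt1 (Pearson 0.946), Gpr119 (0.942), Sprr1a (0.941), Slc6a4 (0.935) and Sox9 (0.934), on log2 CPM. Sprr1a encodes a small proline-rich protein of injured sensory neurons. Gal, which encodes the neuropeptide galanin and is also known from injured neurons, correlated at 0.913. The genes most like Jun were Cfi (0.900), Sf3b3 (0.896), 1700003F12Rik (0.884), Map7d1 (0.865) and Tnik (0.859). Among members the highest values were between Jun and Fosl2 (0.766), Junb and Fosb (0.583), Atf3 and Jun (0.554) and Fos and Fosb (0.549). These libraries fall into injured and intact groups and share their scaling, so the correlations are descriptions without a test.

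Other genes of the pathway were taken from lists. Of 16 AP-1 and ATF relatives tested, 2 rose in injured neurons in the averaged edgeR contrast and 0 fell, beside 5.11% of all genes called higher, with a median of 0.19 against 0.03 for all genes. These were Crem, a CRE-binding factor (1.91 ± 0.35, adjusted p = 0.00313), and Fosl1, which encodes Fra-1 (3.83 ± 0.78, adjusted p = 0.00652). Fosl1 was scarce, at 0.726 to 3.12 CPM in injured and 0 to 0.432 CPM in intact libraries. Of 19 JNK pathway genes 0 were called, with a median of -0.18. Of 21 immediate early and dissociation genes tested, 5 rose and 0 fell, beside the same 5.11% of all genes, with a median of 0.50. The 5 were Klf6 (1.89 ± 0.30, adjusted p = 0.00116), Btg2 (1.82 ± 0.37, adjusted p = 0.00673), Dusp1 (1.28 ± 0.32, adjusted p = 0.0219), Socs3 (2.23 ± 0.61, adjusted p = 0.0373) and Arc (1.99 ± 0.55, adjusted p = 0.0402).

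Of 9 genes that were listed as reported targets of Jun or Atf3 and could be tested, 6 rose and 0 fell, beside 5.11% of all genes called higher, with a median of 2.11 against 0.03 for all genes. They were Sprr1a (11.39 ± 0.69, edgeR adjusted p = 4.74e-08), Gal (9.87 ± 0.88, adjusted p = 2.80e-05), the endopeptidase-like gene Ecel1 (9.43 ± 0.87, adjusted p = 5.01e-05), the DNA damage gene Gadd45a (2.11 ± 0.29, adjusted p = 0.000261), the integrin gene Itga7 (1.70 ± 0.31, adjusted p = 0.00298) and the pro-apoptotic gene Hrk (6.25 ± 1.05, adjusted p = 0.00329). Hspb1, Bcl2l11 and Cd44 had values of 1.06, 0.76 and -0.51 and did not pass. These targets were known as injury genes when the list was made, so their direction is not independent evidence.

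In single cells the members were described without a test, since no cell names its animal and each group counts as 1 sample. CPM in cells is taken over the counts outside CT010467.1 and is not on the scale used above. Shares use the 55 cells with at least 100000 such counts, which left out 10 cells of 1 month (4 injured, 6 intact) and 4 injured cells of 1 year, 1 of them with no counts. The kept cells of 1 month held a median of 2504750 counts after injury and 1555857.5 when intact, and those of 1 year 3917071 and 7145018. In 8 kept cells the satellite glia and Schwann markers together outweighed the neuron markers: 1 of 17 injured and 1 of 12 intact cells at 1 month, and 5 of 18 injured and 1 of 8 intact cells at 1 year. One of the 5, injured 1-year replicate 17, held 19209 CPM of neuron markers, above its group's median of 11685 CPM, beside 28921 CPM of glial ones. The other 7 held 24.9 to 4493 CPM of neuron markers, and some shares and pooled levels without all 8 follow. Among the kept cells 3 had few genes detected and many mitochondrial counts, injured 1-month replicate 18 (608 genes, 68.3%) and intact 1-month replicates 15 and 16 (561 and 1141 genes, 42.5% and 51.1%), the first 2 of which are among the 8. The names of 1-month cells start with L4 or L5, read here as the ganglion's level, and give 10 L4 and 7 L5 injured and 9 L4 and 3 L5 intact cells kept, while the names of 1-year cells give no level.

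Atf3 was detected in most single cells of either condition, and injured cells at 1 month were set apart by a high tail. At 10 CPM or more it was present in 13 of 17 injured and 9 of 12 intact cells at 1 month, which is 76.5% (exact Clopper-Pearson 95% interval 50.1 to 93.2) and 75% (42.8 to 94.5). At 1 year the share was 14 of 18 injured cells, or 77.8% (52.4 to 93.6), and 6 of 8 intact cells, or 75% (34.9 to 96.8). After thinning each cell to 100000 counts, 14, 10, 12 and 7 of these cells still held an Atf3 fragment, in the same order of groups, or 82.4%, 83.3%, 66.7% and 87.5%. Without the 8 cells with more glial than neuron marker counts the shares were 81.3%, 81.8%, 92.3% and 85.7%, and those 8 cells held 0 to 31.7 CPM of Atf3. Without the 3 cells with few genes they were 81.3% and 90% at 1 month. At 50 CPM or more the shares lay further apart, at 64.7% of injured and 33.3% of intact cells at 1 month and 38.9% and 50% at 1 year. The intervals cover counting error over cells, and the shares were not tested between conditions.

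The highest Atf3 levels were in injured L4 cells of 1 month. At 1 month the lowest, median and highest injured cells held 0, 87.3 and 3634 CPM and the intact cells 0, 39.6 and 126 CPM. In 6 of 17 injured cells Atf3 exceeded the highest intact cell, and those 6 held 352 CPM or more. All 6 were among the 10 L4 cells, where the median was 741 CPM, while the 7 injured L5 cells held 1.09 to 120 CPM with a median of 71.9 CPM. Intact L4 cells held 0 to 93.02 CPM (median 26.9) and the 3 intact L5 cells 36.5 to 126.4 CPM. No cell names its animal, so level and animal cannot be told apart. One intact cell left out for its depth, with 95399 counts, held 335 CPM from 32 fragments. At 1 year injured cells held 0, 30.6 and 929 CPM and intact cells 0.479, 51.6 and 164 CPM, with 2 of 18 injured cells above all intact ones. The cell at 929 CPM, injured replicate 15, had 187292 counts outside CT010467.1, against a median of 3917071 in its group. Pooled over all cells of a group, Atf3 was 805 CPM (95% Poisson interval 798 to 813) in injured and 72.4 CPM (69.6 to 75.2) in intact cells at 1 month. At 1 year the pooled levels were 80.6 CPM (78.8 to 82.5) and 62.5 CPM (60.5 to 64.6). A single cell gave 49.4% of the Atf3 fragments of the injured 1-month group and 60.4% of those at 1 year. Intervals cover counting error only, as copies made by PCR are not independent molecules.

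On the same scale the intact low-input libraries had a lower median of Atf3 than the intact cells. Their lowest, median and highest values were 0, 6.51 and 47.9 CPM over 9 libraries, against medians of 39.6 and 51.6 CPM in intact cells. The injured low-input libraries held 198, 805 and 1291 CPM. The median of Fos was lower as well, with 6.24 to 70.7 CPM and a median of 37.6 in intact libraries, against medians of 170.1 and 127 CPM in intact cells. For Jun the intact libraries ran from 70.1 to 271 CPM with a median of 97.8, beside cell medians of 107 and 168 CPM. The low-input libraries and the cells are different libraries of different neurons, and the difference was not tested.

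**Figure D3:**
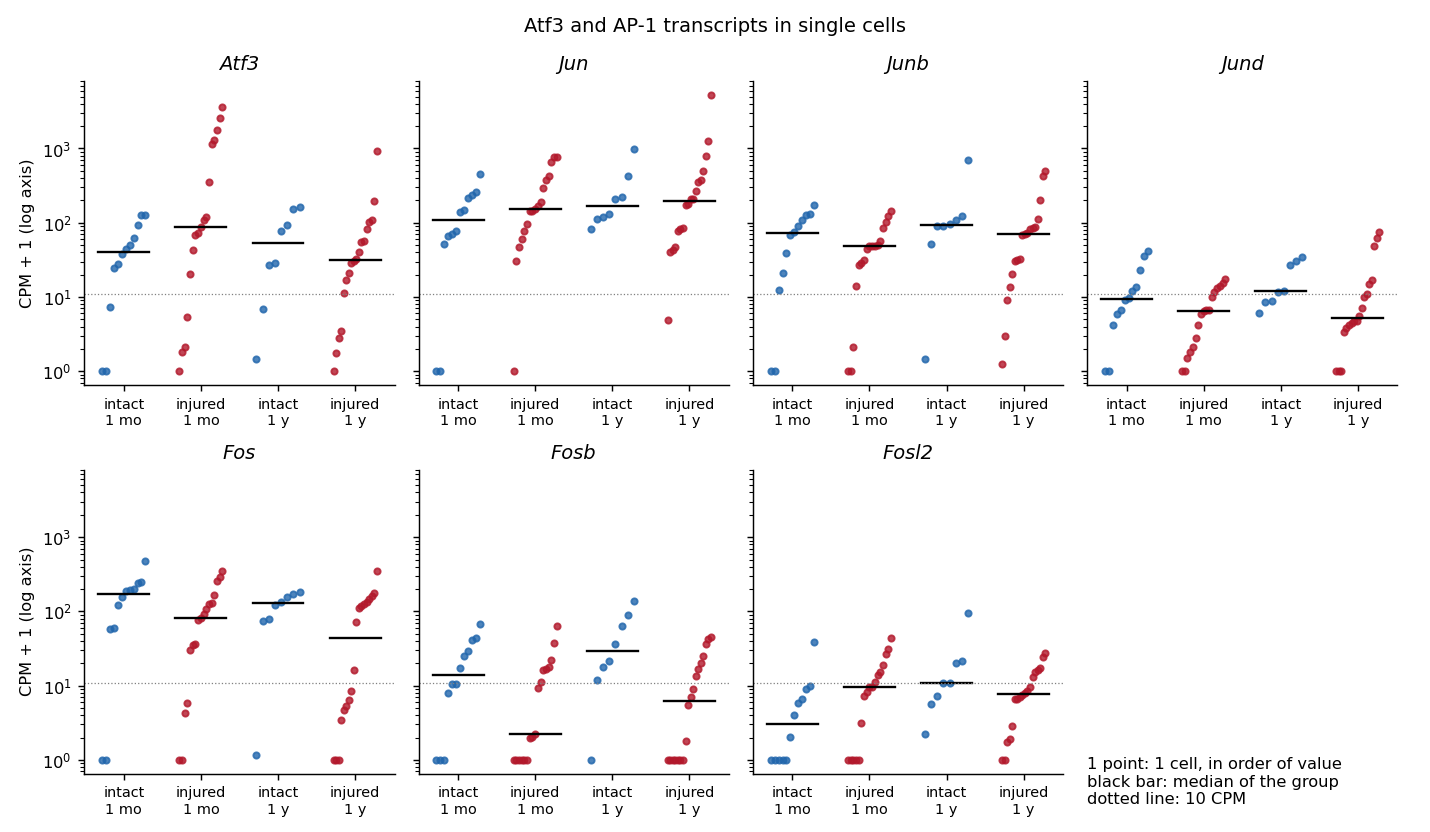
CPM + 1 on a log axis for each gene in the 55 single cells kept (points, ordered by value within a group), with the group median as a bar and 10 CPM as a dotted line. Atf3 reaches 3634 CPM in injured cells at 1 month while intact cells of that age stop at 126 CPM, and the ranges of the other genes overlap widely between injured and intact cells.

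Jun was the member found in most cells. It reached 10 CPM in 16 of 17 injured and 10 of 12 intact cells at 1 month and in 17 of 18 and 8 of 8 at 1 year. Its lowest, median and highest values were 0, 151 and 770 CPM in injured and 0, 107 and 454 CPM in intact cells at 1 month. The zeros are the 3 cells with few genes detected, without which the lowest and median cells held 29.9 and 159 CPM after injury and 50.7 and 142 CPM when intact, and Jun reached 10 CPM in all 16 and all 10 cells. At 1 year they were 3.91, 193 and 5275 CPM in injured and 81.5, 168 and 988 CPM in intact cells. The 5275 CPM came from injured replicate 15, where CT010467.1 took 97.2% of counts and 187292 counts lay outside it. Both lowest 1-year cells, injured replicate 21 and intact replicate 8, held more glial than neuron marker counts. Pooled Jun was 309 and 221 CPM at 1 month and 317 and 286 CPM at 1 year after injury and without it. Without the cells holding more glial than neuron marker counts, pooled Jun at 1 year was 256 CPM after injury and 312 CPM when intact. The order of the conditions at 1 year was then reversed.

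The other members were found in intact and injured cells alike, at shares whose differences were not tested. Junb reached 10 CPM in 14 of 17 injured and 10 of 12 intact cells at 1 month and in 15 of 18 and 7 of 8 at 1 year. Fos did so in 13 of 17 and 10 of 12, and in 10 of 18 and 7 of 8. The Fos median was 80.8 CPM in injured and 170.1 CPM in intact cells at 1 month, and 43.1 and 127 CPM at 1 year. Fosb reached 10 CPM in 7 of 17 and 6 of 12 cells at 1 month and in 7 of 18 and 7 of 8 at 1 year, with 1-year medians of 5.28 CPM in injured and 28.3 CPM in intact cells. Jund did so in 5 of 17, 5 of 12, 6 of 18 and 5 of 8 cells, in the same order. Fosl2 was in 7 of 17 injured and 1 of 12 intact cells at 1 month, and in 6 of 18 and 3 of 8 at 1 year. The median number of members at 10 CPM in a cell was 5 in injured and 5 in intact cells at 1 month, and 4.5 and 6 at 1 year.

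Pooled levels of the members in injured over intact cells give 2 of 7 members at least 2-fold higher at 1 month, Atf3 and Fosl2, and 0 at least 2-fold lower, against 9.43% and 13.8% of the genes with a pooled level of 1 CPM or more in either group. At 1 year 0 members were at least 2-fold higher and 2 lower, Fosb and Fosl2, against 15.6% and 10.1% of genes. On log2(CPM + 1) the 1-month ratios were 3.46 for Atf3, 1.34 for Fosl2 and 0.48 for Jun, then -0.64 for Fos, -0.73 for Junb, -0.77 for Jund and -0.96 for Fosb. At 1 year they were 0.36 for Atf3, 0.15 for Jun and 0.01 for Fos, then -0.39 for Junb, -0.49 for Jund, -1.17 for Fosb and -1.31 for Fosl2. The Fosl2 value at 1 year rests on 1 intact cell that gave 53.7% of that group's Fosl2 fragments and is among those with more glial than neuron marker counts. Without the 8 such cells pooled Fosl2 at 1 year was 6.94 CPM in injured and 10.1 CPM in intact cells. Pooled Jun was then 256 and 312 CPM and Fos 115 and 123 CPM, so both were lower in injured cells. Junb was 71.7 and 159 CPM and Jund 6.22 and 15.9 CPM, while Atf3 stayed higher in injured cells at 100.1 and 70.3 CPM. The median ratio over all genes was -0.07 at 1 month and 0.04 at 1 year.

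Within cells, Atf3 was always accompanied by Jun at the 10 CPM level. All 27 injured and all 15 intact cells with Atf3 also held Jun, while 6 injured and 3 intact cells held Jun without Atf3. Since Jun reached that level in 33 of 35 injured and 18 of 20 intact cells, few cells could have held Atf3 without it. The Spearman correlation of Atf3 with Jun was 0.81 over the 17 injured cells at 1 month, 0.57 over 12 intact cells at 1 month, 0.45 over 18 injured cells at 1 year and 0.67 over 8 intact cells at 1 year. Within the 10 L4 and the 7 L5 injured cells of 1 month it was 0.84 and 0.86. Atf3 with Fos gave 0.13, 0.68, 0.38 and 0.36 in the same order. The 1-month groups include the cells with few genes detected, 1 injured and 2 intact, all at 0 CPM for Atf3, Jun and Fos. Shared zeros raise a correlation, so the intact 1-month values of 0.57 and 0.68 rest in part on such cells. The 1-year groups include cells with more glial than neuron marker counts, 5 injured and 1 intact. Among these, injured replicates 17 and 18 held 1248 and 791 CPM of Jun beside 31.7 and 1.82 CPM of Atf3. Injured replicates 19, 20 and 21 held 76.2, 39.5 and 3.91 CPM of Jun beside 19.9, 0 and 0.734 CPM of Atf3. Correlations without either kind of cell were not computed. In injured cells 20 held both Atf3 and Fos, 7 Atf3 without Fos, 3 Fos without Atf3 and 5 neither; in intact cells the numbers were 15, 0, 2 and 3. Among the other pairs in injured cells of both ages, the Spearman correlation was 0.67 for Junb and Fos, 0.63 for Fos and Fosb and 0.62 for Jun and Junb. Depth differed between cells and moved with some of these levels, with Spearman correlations of 0.85 between depth and Jun and of 0.78 between depth and Fos in intact cells at 1 month, and its part in the co-expression was not tested.

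Sprr1a was found mostly in the injured cells with the highest Atf3. It reached 10 CPM in 9 of 35 injured cells, all of which also held Atf3, and in 0 of 20 intact cells, which allows a share of up to 15%. Of the 8 injured cells with more Atf3 than any intact cell of their age, 7 held Sprr1a, and of the other 27 injured cells 2 did. At 1 month that was 6 of 6 cells against 1 of 11. All 7 of the 1-month cells with Sprr1a were L4 cells, and 7 of the 11 others were L5 cells without it. Within L4 the numbers were 6 of 6 against 1 of 4. Gal reached 10 CPM in 14 of 35 injured cells, 11 of them with Atf3, and in 2 of 20 intact cells, both with Atf3. At 1 month it did so in 7 of 10 injured L4 and 0 of 7 injured L5 cells. The Spearman correlation with Atf3 in injured cells at 1 month was 0.87 for Itga7, 0.76 for Gadd45a, 0.73 for Gal and 0.59 for Sprr1a over both levels (0.80 and 0.87 for the last 2 over the 10 L4 cells), and at 1 year 0.36, 0.50, -0.06 and 0.33. In intact cells at 1 month it was 0.23, 0.11, 0.40 and 0.06. The 1-month values include the cells with few genes detected, and the 1-year values those with more glial than neuron marker counts. Among the latter, injured replicates 18, 19 and 21 held 172, 135 and 104 CPM of Gal beside 1.82, 19.9 and 0.734 CPM of Atf3. Injured replicates 17 and 20 held 5.38 and 0.280 CPM of Gal beside 31.7 and 0 CPM of Atf3. Values of these correlations without such cells were not computed.

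**Figure D4:**
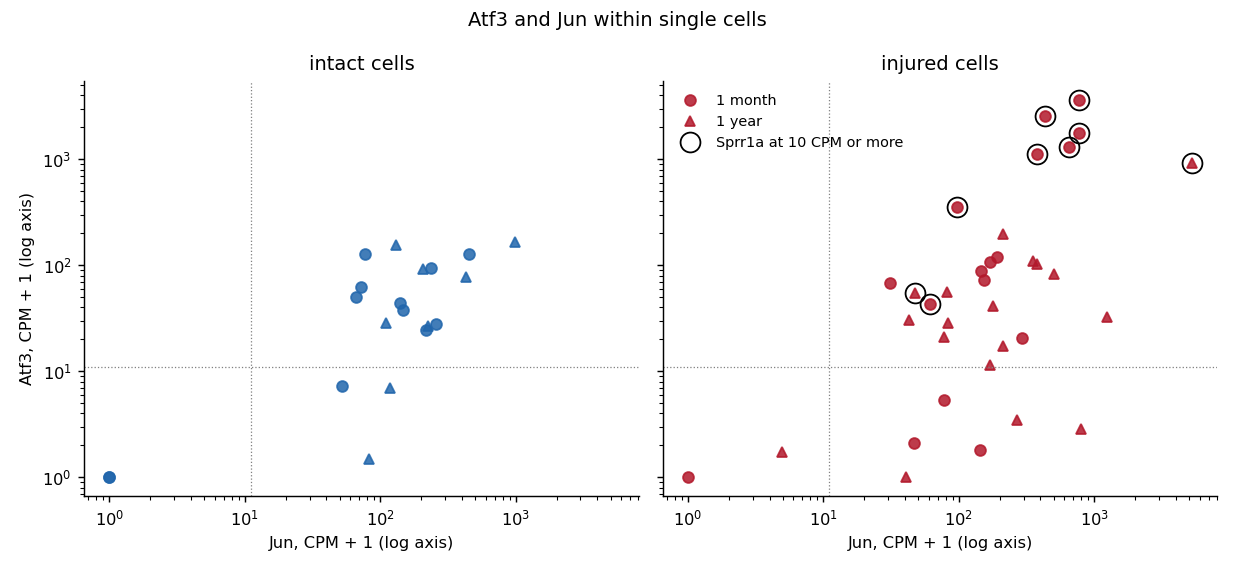
Atf3 against Jun, both as CPM + 1 on log axes, in the 20 intact and 35 injured single cells kept, with circles for 1 month, triangles for 1 year and black rings for cells with Sprr1a at 10 CPM or more. The ringed cells are all injured, and 7 of the 9 lie above the highest intact Atf3 value of their age.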

How the data were processed

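Raw fragment counts (genes in rows) were deposited in 87 columns, 1 per library name; 136 RNA samples share these names, and 94 methylation samples were not analysed here. Per the file headers, the authors counted pairs with featureCounts 1.5.2 over GENCODE vM16 exons and spike-ins, with no strand option. Trim Galore, STAR and the mm10 build are named in the submitters' processing notes. The deposited exon length per gene (other unit, bp) was used for levels per kb. Spike-ins (92 features) were removed. The 18 low-input libraries were fitted together with edgeR 4.0.16 in R 4.3.3 (filterByExpr, TMM, robust quasi-likelihood, 1 mean per group, 12 residual degrees of freedom), with contrasts of injury at each age, their average, their interaction and age within each condition. Tests were two-sided, and calls used a Benjamini-Hochberg adjusted p below 0.05 over all 14212 genes. DESeq2 1.42.0, limma-voom (limma 3.58.1), RLE and spike-in scaling, no filter, a replicate block, removal of CT010467.1 and mitochondrial genes, own-age libraries and leaving out each library were alternatives. Fits were tested on simulated data. Injured and intact libraries with the same number deviated together at 1 month (correlations 0.206, 0.218 and 0.485 over 1669 genes), not at 8 months (-0.498, -0.352 and 0.106) or 12 months (-0.085, -0.098 and 0.082). From these correlations alone, numbers were read as possibly pairing the 1-month libraries. Libraries with different numbers gave -0.427 to 0.210 at 1 month and up to 0.608 at 8 months, so the pairing is not established. The replicate block was fitted at all 3 ages. The counts of a cell were divided by its total outside CT010467.1. Members are named whatever their values; other genes are list genes that passed, at most 6 a list, and the 5 most correlated with Atf3 or Jun. Hspb1, Bcl2l11 and Cd44, which complete a count, and the Gal correlation were named after their values were seen. Members and lists were chosen with earlier results of these data known.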

Additional observations from a re-analysis of the deposited data

Results flagged for a closer look

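Among the 8 intact cells at 1 year, the 7 members were checked on the CPM scale for a cell far from the others, and 3 showed one. The critical value flags about 1 in 20 sets of normally distributed values. CPM in cells is skewed, and the Jun and Junb flags come from the same cell. That rate therefore does not hold for these flags, and log values were not checked. Jun was 988 CPM in the highest cell and 429 CPM in the next, a gap of 0.617 of the group's range, above the critical 0.526. Junb was 706 CPM in the same cell and 121 CPM in the next, a gap of 0.829 of the range. That cell also held the highest Atf3 (164 CPM), Fosb (136 CPM) and Jund (33.9 CPM) of the group. Fosl2 was 93.8 CPM in another cell and 20.7 CPM in the next, a gap of 0.790 of the range. That cell held more glial than neuron marker counts (11116 against 1593 CPM), with Atf3 at 0.479, Junb at 0.479, Fos at 0.160 and Fosb at 0 CPM.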

How the results depend on the processing

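Of 1664 comparisons of 95 results with alternatives, 1396 kept their direction, side of the threshold or size. The counts of genes called for the averaged contrast (878), 1, 8 and 12 months (33, 136, 425), the interaction (0), age in intact (593) and age in injured neurons (31) were, in that order, 1548, 123, 533, 1231, 208, 1972 and 132 with DESeq2, 1722, 276, 661, 937, 385, 1951 and 319 without the filter, and 13493, 50, 631, 13675, 60, 12158 and 8 with spike-in scaling. Limma-voom gave 61 at 1 month, 1357 for age in intact and 63 in injured neurons, RLE gave 1 for the interaction, and own-age libraries gave 50, 4 and 52 at 1, 8 and 12 months. Leaving out 1 library gave 561 to 1462, 6 to 47, 27 to 236, 74 to 1036, 0 to 20, 254 to 1697 and 14 to 42. With the replicate block the counts were 329 averaged, 5, 29 and 58 by age and 1 for the interaction, and the block left 0 members at 1 and 8 months, Atf3 at 8 months being 5.54 with an edgeR adjusted p of 0.0505; it changed no other member's call. Members called were 1 averaged with RLE and 7 with spike-in scaling, which also gave 7 at 12 months and 7 for age in intact neurons. Without the filter they were 2 at 8 months, 3 at 12 months, 2 for the interaction and 2 for age in intact neurons, with DESeq2 2 at 8 months and with own-age libraries 0 there. Leaving out 1 library gave 1 to 3 averaged, 0 to 1 at 1 and 8 months, 1 to 3 at 12 months and 0 to 2 for age in intact neurons.

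Spike-in scaling turned the sign of Jund (2.28 averaged, 0.15 at 8 and 4.99 at 12 months), Fosb averaged (2.44), Junb at 8 months (0.061) and Fos (1.61 at 8 and 6.69 at 12 months). Fos at 12 months also turned with limma-voom (1.05), the block (0.37) and without CT010467.1 and mitochondrial genes (0.014). Leaving out 1 library moved Fos over -0.68 to 1.06 at 12 months, -0.55 to 0.016 at 8 months and -0.043 to 0.54 averaged, Fosb over -0.13 to 0.87, -0.017 to 4.29 and -1.32 to 0.37 at 1 month, 12 months and averaged, Fosl2 over -0.053 to 5.61 at 12 months, and Jund over -0.15 to 0.32, -1.10 to 0.45 and -1.75 to 0.087 at 1, 8 and 12 months. The cause was not tested. The share of cells with Atf3 was 94.1% of injured 1-month, 94.4% of injured and 100% of intact 1-year cells at 1 fragment or more, 64.7% of injured and 33.3% of intact 1-month and 38.9% of injured and 50% of intact 1-year cells at 50 CPM, and 100% of intact 1-month cells with at least 500000 counts; leaving out cells with more glial than neuron marker counts, or with under 2000 genes detected, was chosen after seeing the data. The 3 libraries of a group, the few fragments of Fosb, Jund and Fosl2 and the number of cells limit the precision.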
